A study of Mus musculus with 30 samples.

Results

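The genes described here are the cytosolic ribosomal protein (RP) genes of the mouse, the genes for the protein parts of the ribosome outside mitochondria. They were chosen by symbol alone: Rpl or Rps followed by a number, Rplp0 to Rplp2, and Rpsa, without the Rps6k kinases and without symbols that mark a pseudogene or a related sequence. Of 29555 rows in the gene tables, 92 matched, 54 with a large subunit symbol and 38 with a small subunit symbol. The rule also took in Rps19bp1, which binds an RP and is not one, and 5 rows that RefSeq types as pseudogenes (Rps4l, Rps12l1, Rpl6l, Rps3a3 and Rps3a2). A further 244 rows carry the symbol of a member followed by -ps, and 57 members have at least 1 such named pseudogene.

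Most RPs are made in equal amounts and built with ribosomal RNA into the small and the large subunit, which decode the mRNA and join amino acids, respectively. Their mRNAs are among the most abundant in dividing cells, and most start with a run of C and T, the 5' TOP motif, through which mTOR signalling controls their translation. Because the mRNAs are short and abundant, the mouse genome holds many processed copies of them, so that a sequencing read can match the gene and its copies equally well. For this reason the counts of genes called are given for the genes' own rows and for the sum of each gene with its named pseudogenes, called the summed form below. Copies under other symbols are not added in this form. A value of a single gene is that of its own row unless the summed form is named.

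Poly(A)-selected RNA was sequenced from epiblast stem cells (EpiSCs), pluripotent cells in the state of the epiblast before gastrulation, and from definitive endoderm (DE), the germ layer of gut, liver and lung, made from them in culture. The EpiSCs were untreated, at passage 5 to 10, and were kept on feeders in N2B27-based medium with Fgf2, ActivinA and NVP-TNKS656, a Wnt inhibitor. They came from C57BL/6 (B6, 5 libraries numbered 1, 2, 4, 44 and 51), PWK/PhJ (PWK, 3 libraries), a cross of B6 with 129 (B6.129 F1, 3 libraries) and DBA/2J (DBA, 1 library). The 4 DE libraries (B6, numbered 2, 4, 44 and 51) came from cells held for 16 h with CHIR99201, a Wnt agonist, and ActivinA, followed by 24 h with ActivinA and LDN193189, a BMP inhibitor. The labels give 46 h for the whole differentiation, and CXCR4+ cells were taken with magnetic beads. Accessible chromatin was measured by ATAC-seq in 8 libraries of B6 cells (4 of EpiSCs and 4 of DE), 2 of PWK EpiSCs and 1 of DBA EpiSCs. The labels call the replicates BioReps and do not say what separates them, so the p-values measure only the spread between these libraries.

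The RNA libraries hold from 22829536 to 66563933 counts each. Pou5f1, the pluripotency factor, was at 982 to 1331 CPM (counts scaled to the same fixed total in each library) in the B6 EpiSC libraries and at 2.46 to 37.8 in DE, with replicate 2 the highest. Of 6 EpiSC markers fixed for the check, 4 were called lower in DE and 2, Fgf5 and Otx2, higher, so that the list's sum was not lower in DE (1911 to 2241 CPM against 1470 to 2023). Sox17, an endoderm factor, was at 0.628 to 9.52 CPM in EpiSCs and 1128 to 1462 in DE. The 10 fibroblast markers fixed for the feeders summed to 69.7 to 2495 CPM in B6 EpiSCs, 271 in DE replicate 2 and 89.8 to 97.4 in the other DE libraries, where 1 of the 10 was at 0. B6 EpiSC replicates 2 and 44 stood apart from 1, 4 and 51 in how counts were shared between a gene and its copies. The own row of Rpl3 had 51.3% and 53.8% of the summed counts in replicates 2 and 44, 97.3 to 99.7% in the other B6 libraries, 48.1 to 49.3% in B6.129 F1 and 46.0 to 46.2% in PWK. That of Rps2 had 74.1% and 75.3%, against 98.7 to 99.4%, 73.2 to 75.6% and 34.6 to 36.9%, and that of Rps13 had 23.6% and 25.9%, against 38.5 to 74.6%, 21.8 to 29.1% and 63.3 to 74.4%. At these genes, named after their values were seen, replicates 2 and 44 lay in or near the B6.129 F1 range. Whether these lines have the labelled background there was not tested, and the counts of calls are also given without B6 numbers 2 and 44. In bulk samples, fewer cells of a type and less RNA per cell cannot be told apart.

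The starts of 9 genes on which the results below turn are shown first, because the pyrimidine run at the start is the feature the 5' TOP motif is named for. Each line has 15 bases on either side of a start annotated by RefSeq in GRCm38.p6, on the gene's strand. Capitals mark the longest run of C and T that comes within 5 bases of the start, where it has at least 8 bases. Rpl7a lies at chr2:26910792-26910821 (+ strand), Rps18 at chr17:33955651-33955680 (− strand), Rps26 at chr10:128626492-128626521 (− strand), Rps27 at chr3:90213634-90213663 (− strand) and Rpl22l1 at chr3:28805493-28805522 (+ strand). Rps12 lies at chr10:23787195-23787224 (− strand), Rps7 at chr12:28635939-28635968 (− strand), Rps23 at chr13:90923107-90923136 (+ strand) and Rpl7l1 at chr17:46782642-46782671 (− strand).
Rpl7a: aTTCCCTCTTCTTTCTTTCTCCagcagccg
Rps18: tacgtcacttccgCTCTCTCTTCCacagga
Rps26: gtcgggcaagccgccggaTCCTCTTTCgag
Rps27: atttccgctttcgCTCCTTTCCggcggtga
Rpl22l1: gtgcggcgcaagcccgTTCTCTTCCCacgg
Rps12: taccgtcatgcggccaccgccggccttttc
Rps7: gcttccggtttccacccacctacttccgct
Rps23: gccttcggctgggcggggcttcccgcaatg
Rpl7l1: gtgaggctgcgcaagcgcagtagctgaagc

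The run reached 21 bases at Rpl7a and 11 at Rps18, and no run of 8 bases lay at the start shown for Rps12, Rps7, Rps23 or Rpl7l1. The RefSeq gene reaches further upstream than the start shown for Rps12, to chr10:23787383, and for Rpl7a, to chr2:26910685. Runs at these outer ends were not examined. Windows from 250 bases before to 50 bases after a start were found for 67 of the 92 members, 79 windows in all. A run of at least 8 bases was present at 30.4% of them, against 9.72% of all 32851 windows in the table. The letters CGGAAG, the core bound by ETS family factors, were on either strand of 59.5% of member windows against 16.85% of all windows. AAGATGG, the core bound by YY1, was in 15.2% against 6.34%, and GGGCGG, the GC box, in 59.5% against 35.7%. TATAAA, the TATA box, was in 8.86% of member windows and 13.6% of all windows. CGGAAG can overlap with both AAGATGG and GGGCGG, and the absence of letters from a window says nothing of a factor's binding.

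The first comparison asks how RP mRNA differs between B6 DE and the B6 EpiSCs it is made from. In 3 of the 4 DE libraries the family as a whole stood far below every EpiSC library, and in DE replicate 2 it did not. Summed over the 92 rows, the members took 47531, 48617, 55746, 50334 and 54914 CPM in EpiSC replicates 1, 2, 4, 44 and 51. In DE they took 50017 CPM in replicate 2, 17995 in replicate 4, 17870 in replicate 44 and 23821 in replicate 51. On this scale, which uses TMM library sizes, replicate 2 lay inside the EpiSC range and the other DE libraries far below it. The DE mean was 27426 ± 15315 (SD, n = 4) against 51428 ± 3711 (SD, n = 5), a log2 ratio of −0.91. As raw shares of all counts, which no scaling touches, the members had 4.97 to 5.73% in EpiSCs, 4.31% in DE replicate 2 and 1.80 to 2.36% in the other DE libraries, so that by raw share replicate 2 was below every EpiSC library, though nearer to them than to the other DE libraries. With the copies added the values were 52944 to 60854 CPM in EpiSCs and 59030, 20746, 20928 and 26761 in DE replicates 2, 4, 44 and 51.

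**Figure D1:**
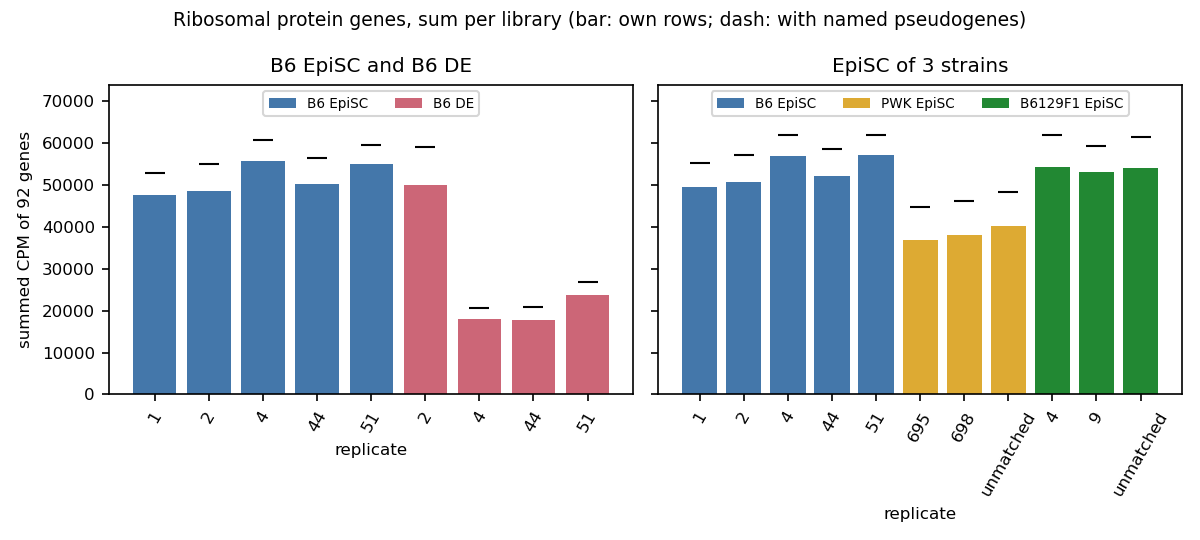
Summed CPM of the 92 ribosomal protein rows in each RNA library, as bars from 0 for the genes' own rows and dashes for the genes with their named pseudogenes added. The left panel has B6 EpiSC and B6 DE, and the right panel the EpiSCs of B6, PWK and B6.129 F1, where unmatched marks a library known by strain only. DE replicate 2 sits with the EpiSC libraries at 50017 CPM, while the other DE libraries lie between 17870 and 23821, and the PWK EpiSC libraries lie between 36966 and 40140.

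Of the 92 members, 88 had enough counts to be tested in this comparison, and edgeR's quasi-likelihood test called 58 lower and 2 higher in DE at an adjusted p under 0.05, with 28 not called. Over all 14085 genes tested, 30.6% were called lower and 31.5% higher. The members' median log2 change was −1.30 (quartiles −1.75 and −0.58), against −0.01 over all genes tested. The groups did not overlap for 41 members lower in DE and 2 higher, against 27.6% and 28% of all genes. In the summed form 52 were called lower and 2 higher, beside 30.6% and 31.4% of all genes, and the median was −1.20. By subunit, 35 of 51 large subunit genes and 23 of 37 small subunit genes were called lower. The untested members were Rpl10l, Rpl39l, Rpl3l and Rps12l1, of which the first 3 are known for tissue-restricted expression. Rps12l1 had 1165, 1278 and 1048 counts in DE replicates 2, 4 and 51 and 0 in replicate 44 and in every EpiSC library, so it was left out for its 0 in a DE library.

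The counts moved with DE replicate 2. Without it, 78 of 89 members tested were called lower and 2 higher, and the median was −1.87. In that fit 31.8% of all genes were called lower and 31.6% higher. The summed form gave 79 lower with a median of −1.82, and its share over all genes is not given. With numbers 2 and 44 left out of both groups, 75 were called lower and 3 higher (74 and 3 in the summed form). The shares of all genes called are not given for the fits without these numbers, in this or the other comparisons. Those counts thus have no background beside them. By position against the 5 EpiSC libraries, DE replicate 2 had 41 members below their range, 21 within it and 26 above it (37, 18 and 33 in the summed form). Replicates 4, 44 and 51 had 78, 81 and 78 of the 88 below. Read by gene, 41 members were below the EpiSC range in all 4 DE libraries and 2 were above it in all 4. Over all genes these shares were 27.6% and 28%. A further 35 were below in replicates 4, 44 and 51 but not in 2. For these 35 and for the counts by library the share over all genes is not given, so they have no background beside them.

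**Figure D2:**
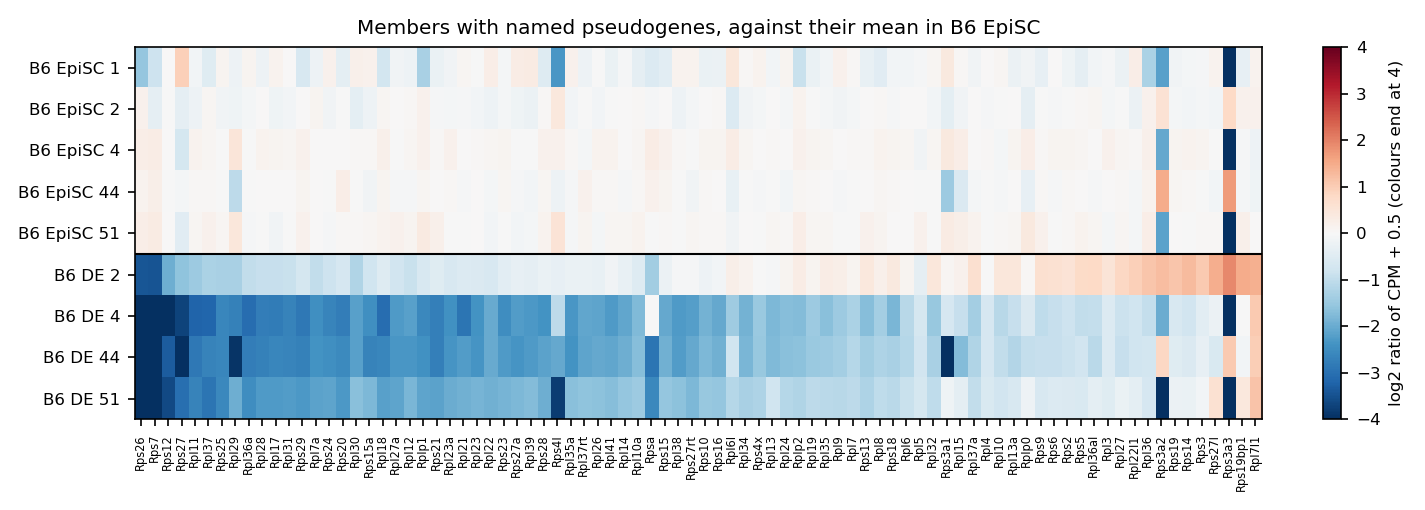
Heat map of tested members (columns, ordered by their log2 change) in the B6 EpiSC and B6 DE libraries (rows), in the summed form, as the log2 ratio of CPM + 0.5 to the EpiSC mean, with colours ending at a ratio of 4 in size. Replicates 4, 44 and 51 of DE are low (blue) across most members, and replicate 2 is low in some and high (red) in others.

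Among the small subunit genes, the largest falls on the gene's own row were those of Rps12, Rps26, Rps7 and Rps23. Rps12, a protein of the beak of the small subunit, was at 86.8, 152, 137, 148 and 156 CPM in EpiSC replicates 1, 2, 4, 44 and 51 and at 2.75, 1.14, 1.37 and 1.06 in DE replicates 2, 4, 44 and 51. All DE libraries were low, replicate 2 included. The log2 change was −6.48 (SE 0.36, edgeR adjusted p = 7.3e-07). With its pseudogenes added, Rps12 was at 460 to 477 CPM in EpiSCs and 122, 17.9, 46.4 and 38.0 in DE, a log2 change of −3.07 (adjusted p = 0.00027 by edgeR). The fall remained without overlap of the groups, and its size was far smaller in the summed form. The own row held only 54, 69, 35 and 70 counts in DE, where Rps12l1, which RefSeq pairs with Rps12, held 1165, 1278, 0 and 1048. In a wider sum that takes in Rps12l1 the log2 change was −2.55 (edgeR adjusted p = 0.00054).

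Rps26, which contacts mRNA at the exit of the decoding channel, was at 181, 603, 648, 592 and 647 CPM in EpiSCs and at 48.3, 12.1, 8.84 and 14.6 in DE. EpiSC replicate 1 was the lowest EpiSC library and still above all DE libraries. The log2 change was −4.68 (SE 0.62, edgeR adjusted p = 1.0e-04) and −4.64 in the summed form. Rps7, a small subunit protein that also binds Mdm2, was at 238, 332, 513, 493 and 532 CPM in EpiSCs and at 37.9, 10.8, 15.6 and 18.6 in DE. Its log2 change was −4.35 (SE 0.43), and the groups were far apart. Rps7 has no named pseudogene to add, and copies of it under other symbols were not examined. Rps27 was also lower in every DE library than in any EpiSC library, with 40.9 to 129 CPM in EpiSCs, 21.4 in DE replicate 2 and 3.68 to 7.68 in the other DE libraries (log2 change −2.85). The row Rps27rt held more counts than Rps27 in each of these libraries and is not joined to it in any sum used here.

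For Rps23 and Rps13 the fall shrank once the copies were counted. Rps23, which lies in the decoding centre, fell by 3.95 on the log2 scale in its own row and by 1.51 in the summed form (edgeR adjusted p = 0.0058). Its summed values were 835 to 955 CPM in EpiSCs and 660, 160, 185 and 244 in DE. Rps13 was at 148, 113, 343, 123 and 393 CPM in EpiSCs and 26.2, 14.9, 8.21 and 21.7 in DE on its own row, a log2 change of −3.66. In the summed form it was at 384 to 527 CPM in EpiSCs and 628, 144, 177 and 199 in DE. DE replicate 2 was then above all EpiSC libraries, the groups overlapped, and the change was no longer called (−0.71, edgeR adjusted p = 0.14). Rps6, the substrate of S6 kinase, went from −1.29 on its own row (called) to −0.30 in the summed form (edgeR adjusted p = 0.40), and Rpsa, which also serves as a laminin receptor, from −2.35 to −1.27 (adjusted p = 0.057 by edgeR).

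Rps3, Rps14 and Rps19 sat on the other side. Rps14 was at 1241 CPM in DE replicate 2 and 307, 349 and 433 in replicates 4, 44 and 51, against 488 to 574 in EpiSCs. Replicate 2 was above the highest EpiSC value and the other DE libraries were below the lowest. Rps19, the gene most often mutated in Diamond-Blackfan anaemia, had 1303 CPM in replicate 2 and 387 to 507 in the other DE libraries. None of Rps3, Rps14 and Rps19 was called with all 4 DE libraries (log2 changes 0.18, 0.16 and 0.14). Without DE replicate 2, all 3 were called lower (−0.27, −0.51 and −0.42). Rps2 (−0.26) and Rps27l (0.52) were not called, and Rps27a, which is made as a fusion with ubiquitin, was called lower at −1.48.

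**Figure D3:**
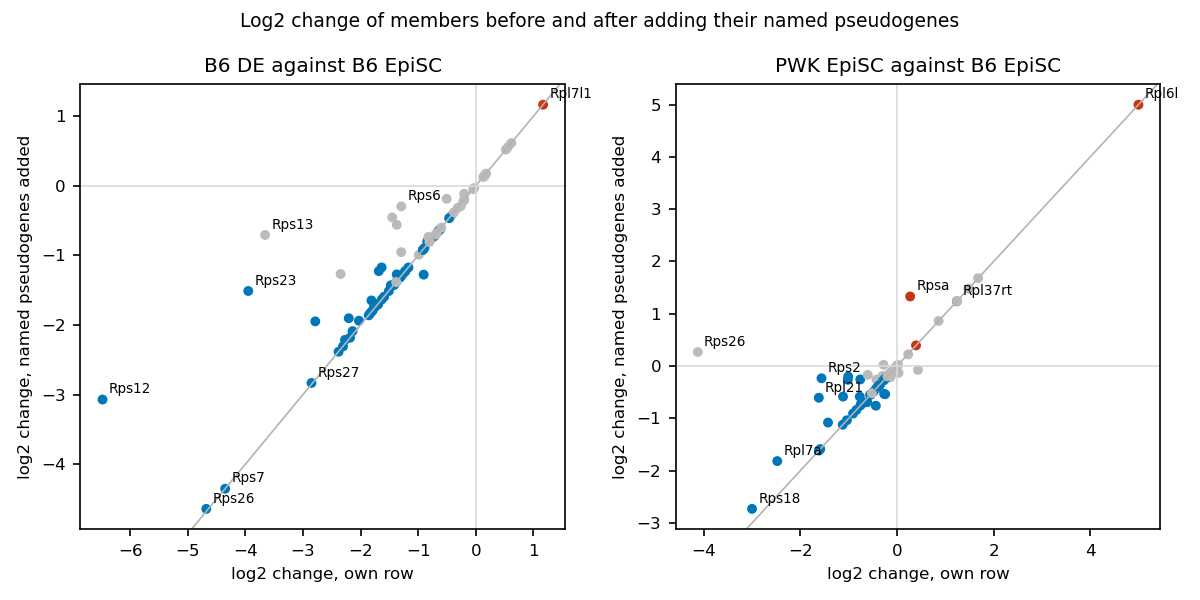
Log2 change of tested members on the gene's own row (horizontal axis) and with its named pseudogenes added (vertical axis), in DE (left) and PWK EpiSCs (right) against B6 EpiSCs, coloured red or blue where called higher or lower with the pseudogenes added. Points off the diagonal line of equal values are genes whose change depends on the copies, such as Rps12 (−6.48 and −3.07) and Rps13 (−3.66 and −0.71) in DE and Rps26 (−4.12 and 0.27) in PWK.

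Among the large subunit genes, Rpl11 and Rpl5, which bind Mdm2 together with 5S ribosomal RNA when ribosome assembly fails, were both called lower. Rpl11 was at 659 to 848 CPM in EpiSCs and 278, 83.5, 104 and 121 in DE replicates 2, 4, 44 and 51, with no overlap (log2 change −2.38). Rpl5 was at 94.2 to 117 CPM in EpiSCs and 80.9, 64.4, 61.4 and 64.5 in DE, a smaller difference with no overlap (−0.62, edgeR adjusted p = 0.0018). Rpl22 (−1.51), Rpl26 (−1.31), Rpl36a (−2.14), Rpl38 (−1.68), Rpl39 (−1.42) and Rpl41 (−1.28) were called lower in the test of single rows, and all 6 also in the summed form, where Rpl38 was at −1.23. Rpl38 has been linked to the translation of Hox mRNAs. Rpl10a fell by 1.37 and Rpl7 by 0.72 on the log2 scale. The groups overlapped for Rpl41, for Rpl7, for Rpl10a on its own row and for Rpl38 in the summed form. In each of these DE replicate 2 was not below the EpiSC range.

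Rpl3, part of the peptidyl transferase centre, and Rpl13a were not called (−0.51 and −0.42). Of the stalk proteins, which recruit elongation factors, Rplp1 was called lower (−1.70, edgeR adjusted p = 0.0083), while Rplp0 (−0.38) and Rplp2 (−0.80) were not. For Rplp1 the groups overlapped, with 603 CPM in DE replicate 2 and 380 in EpiSC replicate 1. Rpl10, which joins the large subunit last, fell by 1.45 on its own row, and its summed value was not called (−0.45, edgeR adjusted p = 0.20).

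Among the members called higher was Rpl7l1. Rpl7l1, a paralog of Rpl7 that acts in ribosome assembly, was at 148 to 190 CPM in EpiSCs and 456, 352, 333 and 379 in DE, with every DE library above all EpiSC libraries (1.17, SE 0.14, edgeR adjusted p = 5.2e-05).

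Paralog pairs were compared by the log2 ratio of their counts within a library, which no scaling between libraries touches. The ratio of Rpl7l1 to Rpl7 was −3.19 to −2.74 in EpiSCs and −1.65, −0.63, −0.84 and −0.76 in DE replicates 2, 4, 44 and 51. That of Rpl22l1 to Rpl22 was −2.30 to −2.25 in EpiSCs and −0.67, −1.05, −1.04 and −0.74 in DE. Rpl36al to Rpl36a went from −0.83 to −0.47 in EpiSCs to 1.15 to 1.59 in DE, and Rps27l to Rps27 from 0.53 to 2.05 in EpiSCs to 4.43 to 5.08 in DE. In all 4 pairs the ratio was higher in every DE library, replicate 2 included, than in any EpiSC library. The differences of the means were 2.00, 1.39, 1.99 and 3.38. Each had p = 0.0159 in a two-sided exact permutation test over 126 splits, the smallest p these allow, and 0.0476 after Benjamini-Hochberg adjustment over the 12 ratios tested in the 3 RNA comparisons. The mRNAs of a pair differ in length, so the sign of a ratio does not say which paralog had more molecules. The ratio to Rps27 leaves out the row Rps27rt. In B6 EpiSCs Rps27rt held 7339 to 8544 counts and Rps27 1134 to 3393, and in DE these were 1816 to 5630 and 94 to 506. The ratio of Rps27l to both rows together was not tested.

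Which copy held the counts also differed between the cell states for some genes. Of 65 named pseudogenes tested, 7 were called higher and 19 lower in DE, the lower share near the 30.6% and the higher share under the 31.5% over all genes. Rpl10-ps1 was at 0 to 1.85 CPM in the 5 B6 EpiSC libraries and at 912, 341, 372 and 413 in DE replicates 2, 4, 44 and 51. Rpl9-ps6 was at 0.185 to 1.66 CPM in EpiSCs and 43.5, 21.7, 30.1 and 14.9 in DE. In the other direction, Rpl14-ps1 was at 186 to 287 CPM in EpiSCs and 23.3, 25.8, 13.96 and 9.69 in DE. These rows were named after their values were seen. In each of them all 4 DE libraries stood apart from all EpiSC libraries, replicate 2 with the rest, unlike in the family sum. What sets which row holds the counts was not tested.

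**Figure D4:**
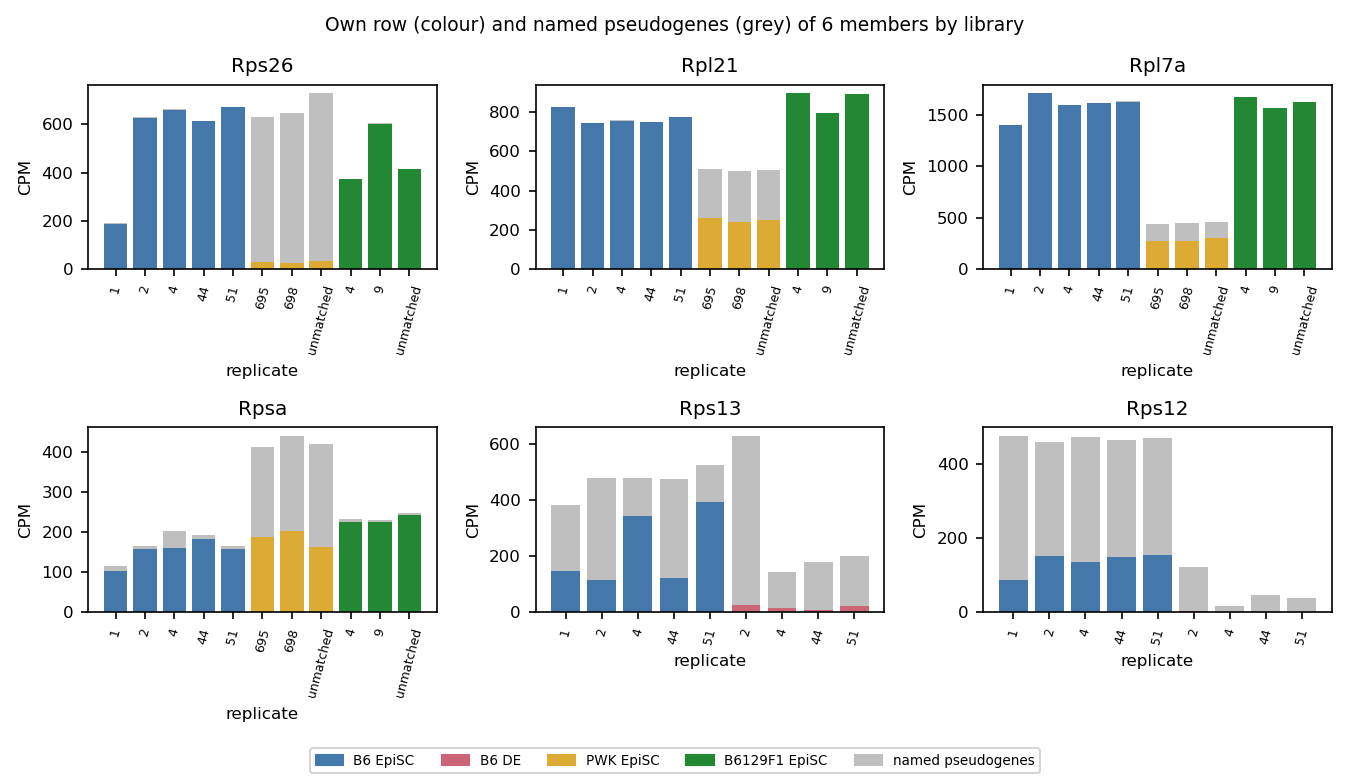
CPM in each library of 6 genes (own row) and of the named pseudogenes added to them, as stacked bars from 0, with Rps26, Rpl21, Rpl7a and Rpsa over the EpiSC libraries of 3 backgrounds and Rps13 and Rps12 over B6 EpiSC and B6 DE. The copies hold most of Rps26 in PWK and most of Rps13 in DE.

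Genes that work with the RPs were read from lists, beside the 30.6% of all genes called lower and 31.5% called higher. Of 34 ribosome assembly factors, 13 were called lower and 5 higher in DE, with a median log2 change of −0.22, the lower share not far from that of all genes. The nucleolar helicase Ddx21 had the largest fall among them (−2.68). Of 16 translation factors and other genes with 5' TOP mRNAs, 9 were called lower and none higher (median −0.91), among them the poly(A) binding protein Pabpc1 (−2.27), Eif4b (−1.44), Eef2 (−1.22) and Eef1a1 (−1.17). Without DE replicate 2 the same list had 13 lower and 0 higher. Its sum was 28408 to 31099 CPM in EpiSCs, 20403 in DE replicate 2 and 11560 to 13313 in the other DE libraries. Here replicate 2 lay between the groups.

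The 77 genes of the mitochondrial ribosome went the other way, with 45 called higher and 1 lower (median 0.62). Without DE replicate 2 they were 37 and 4 (median 0.33). Their sum was 3202 to 3637 CPM in EpiSCs, 9026 in DE replicate 2 and 4204 to 5290 in the other DE libraries, so no DE library overlapped the EpiSC range. Of 26 genes of RNA polymerases I and III, 10 were called lower and 6 higher, with Polr3k (1.94) and Brf1 (1.49) among those higher. Of 16 genes of growth control, 6 were lower and 4 higher, and both lists were near the shares over all genes. Mtor fell by 1.99 and its effector Eif4ebp2 by 2.32, Mycl rose by 2.56 and Rheb by 1.32 on the log2 scale, and Myc was not called (−0.25, edgeR adjusted p = 0.16). Of the RPs outside the symbol rule, Fau was called lower (−2.27) and Rack1 was not called (−0.19).

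The second comparison sets PWK EpiSCs beside B6 EpiSCs. PWK mice are inbred and descend from wild mice of another subspecies than most laboratory strains. The members summed to 49590 to 57143 CPM in the 5 B6 libraries, 36966 to 40140 in the 3 PWK libraries and 52989 to 54212 in the 3 B6.129 F1 libraries. PWK was below both other groups without overlap. With named pseudogenes the ranges were 55184 to 61991, 44774 to 48269 and 59341 to 61850 CPM, so the gap was narrower with the copies counted. The feeder markers summed to 2016 to 2827 CPM in PWK, 72.7 to 2597 in B6 and 142 to 207 in B6.129 F1, and their part in the difference was not tested.

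Of 89 members tested, edgeR's quasi-likelihood test called 42 lower and 3 higher in PWK, where 14.5% of all 14822 genes were called lower and 12% higher. The median log2 change of members was −0.25. The groups did not overlap for 41 members lower and 4 higher, against 15.8% and 16.4% of all genes. In the summed form 39 were called lower and 4 higher (14.4% and 12% of all genes) and the median was −0.21. Without B6 numbers 2 and 44, 39 were lower and 5 higher (35 and 6 in the summed form), and the summed changes of Rps2 and Rpl3 were no longer called. The share of all genes called in that fit is not given. Most of these changes were small: 14 members were lower by at least 2-fold on their own row and 8 in the summed form. The share of all genes past this fold is not given.

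The largest differences in PWK were those of genes with a copy that held counts in PWK and almost none in B6. Rps26 was at 189 to 674 CPM in B6 and 32.5, 27.4 and 35.5 in the PWK libraries BioRep695, BioRep698 and the one whose number matches no label (log2 change −4.12). Rps26-ps1 was at 0 to 3.68 CPM in B6 and 597, 620 and 693 in PWK. With its named pseudogenes added, Rps26 did not differ detectably (0.27, edgeR adjusted p = 0.59). Rps2 went from −1.56 on its own row to −0.23 with its 8 named pseudogenes, of which Rps2-ps13 was at 2.85 to 13.9 CPM in B6 and 966 to 1111 in PWK. Rpl21 went from −1.62 to −0.61 with its named pseudogenes, of which Rpl21-ps15 was at 0 to 1.43 CPM in B6 and 251 to 260 in PWK.

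Rpl7a, at 1402 to 1707 CPM in B6 and 273 to 304 in PWK, went from −2.48 to −1.82 in the summed form, which takes in Rpl7a-ps11, at 0 in all B6 libraries and 153 to 172 CPM in PWK. The call for Rpsa changed: its own row was not called (0.27, edgeR adjusted p = 0.20), and with its named pseudogenes, of which Rpsa-ps2 was at 0.269 to 1.90 CPM in B6 and 218 to 249.3 in PWK, it was higher in PWK (1.33). Rpl17-ps5, Rps24-ps3, Rps12-ps10 and Rps19-ps6 had the same contrast, each under 2 CPM in every B6 library and over 100 in every PWK library. None of these 9 copies exceeded 8 CPM in any B6.129 F1 library. Of 77 named pseudogenes tested, 16 were called higher and 12 lower in PWK. The lower share was near the 14.5% and the higher share above the 12% over all genes.

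Other members were low in PWK with no named copy that held a like number of counts. Copies under other symbols and reads left unplaced were not examined, so a lower count of these genes need not be less mRNA. Rps18 was at 800 to 907 CPM in B6 and 112, 111 and 99.6 in PWK, a log2 change of −3.00 (SE 0.07) and −2.73 in the summed form. Rpl35a was at 448 to 539 CPM in B6 and 157, 152 and 162 in PWK (−1.62). The groups were far apart for both. The members called higher were Rpl6l (0.83 to 2.2 CPM in B6 and 44.3, 46.2 and 49.0 in PWK), Rpl37rt (80.1 to 103 and 215, 214 and 225) and Rpl13a (0.39). Rpl6l is typed as a pseudogene by RefSeq. Rpl37, the gene whose symbol Rpl37rt extends, went the other way, at 137 to 215 CPM in B6 and 86.5, 91.7 and 99.1 in PWK. No sum used here joins Rpl37rt to Rpl37, so whether their total differs was not tested. Rpl22l1 fell by 0.91 on the log2 scale. The ratio of Rpl22l1 to Rpl22 was lower by 0.82 in PWK and higher by 0.43 in B6.129 F1 (exact permutation p = 0.0357 for each, the smallest that 56 splits allow, and 0.0714 after adjustment), so neither passed the threshold.

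In the lists, beside 14.5% of all genes called lower and 12% higher, PWK had 7 assembly factors called lower and 1 higher of 34, 7 lower and 0 higher of the 16 genes with TOP mRNAs, and 21 lower and 6 higher of the 77 mitochondrial ribosome genes. Of the 26 polymerase genes 5 were lower and 3 higher, and of the 16 growth control genes 3 were lower and 2 higher, near the shares over all genes.

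The third comparison sets the B6.129 F1 EpiSCs beside B6 EpiSCs, with the same B6 libraries. Of 89 members tested, 4 were called higher and 0 lower by edgeR, beside 1.34% and 1.5% of all genes. An unadjusted p under 0.05 was found for 24, and the share of all genes with such a p is not given. The summed form also gave 4 and 0 (1.34% and 1.49% of all genes). DESeq2 called 12 higher and 2 lower on single rows, with no share over all genes beside them. Rpl22l1, the paralog of Rpl22, was at 74.8 to 106 CPM in B6 and 143, 129 and 135 in B6.129 F1, without overlap (log2 change 0.64, edgeR adjusted p = 0.023). Rpl7 rose by 0.25 on the log2 scale. Without B6 numbers 2 and 44, 4 were called higher and 6 lower on single rows and 3 and 3 in the summed form, and Rpl7 was not called (0.22, edgeR adjusted p = 0.072). That fit, too, has no share over all genes beside it. No member was called when only these 2 groups were fitted, and the number called ran from 0 to 16 as single libraries were left out. The shares of all genes called in those fits are not given either.

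The 3 Rps3a rows also divided the B6 EpiSC libraries. Rps3a1 had 96.5%, 96.1% and 96.2% of the counts on the 3 rows in B6 EpiSC replicates 1, 4 and 51, 61.5% in replicate 2 and 29.2% in replicate 44. Rps3a3 had at most 0.0205% in replicates 1, 4 and 51, 11.9% in replicate 2 and 21.8% in replicate 44. The 3 PWK libraries had 26.9 to 28.1% on Rps3a1 and the 3 B6.129 F1 libraries 60.8 to 61.8%. B6 replicate 44 thus lay near PWK, replicate 2 within the B6.129 F1 range for Rps3a1, and the other B6 libraries apart from both. DE replicates 2, 4, 44 and 51 had 56.0%, 91.9%, 9.70% and 99.7% on Rps3a1, in which replicate 44 was again the lowest and replicate 2 the next. The DBA library had 82.4%.

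With the 3 rows joined, the Rps3a total was 1279 to 1409 CPM in B6 EpiSCs and 1958, 703, 641 and 921 in DE, and the difference was not called (−0.35, edgeR adjusted p = 0.33). The coefficient of variation over the B6 EpiSC libraries was 42.3% for Rps3a1 alone and 4.52% for the total. For Rps12 it was 20.8% on its own row and 1.40% in the summed form. Over the 88 tested members the median coefficient of variation was 10.6% in B6 EpiSCs, 4.51% in PWK, 6.19% in B6.129 F1 and 66.98% in B6 DE. Without DE replicate 2 it was 19.97% in DE, so that 1 library made most of the spread.

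The DBA EpiSC library has no replicate, so its values are set beside the B6 range with no test. Of 88 members with a B6 mean of at least 1 CPM, 26 were below and 4 above the range of the 5 B6 libraries, where 22% and 19.2% of all 12733 such genes were. A log2 ratio under −1 was found for 11 and a ratio over 1 for 0, beside 4.15% and 2.16% of all genes. The summed form gave 30 below, 6 above, 8 under −1 and 1 over 1, beside 22.1%, 19.2%, 4.11% and 2.11% of all genes. Rps18 was at 90.8 CPM (B6 798 to 905), Rpl21 at 286 (741 to 824) and Rplp0 at 637 (1678 to 2830). Rpl3 was at 164 CPM on its own row (971 to 2128) and at 1790 in the summed form (1893 to 2186). Rpsa was at 22.9 CPM on its own row (103 to 182) and at 1102 in the summed form (115 to 203). On their own rows Rps18, Rpl21, Rps2 and Rplp0 were below the B6 range in the DBA library and in every PWK library, while Rps26, at 618 CPM, was within the B6 range in DBA.

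Few of the ATAC peaks at the members' promoters differed between the groups. Of the 67 members with a window, 60 (89.6%) had an ATAC peak in it, against 45.7% of 27025 symbols with a window. The peaks at member promoters summed to 1188, 1176, 1141 and 1494 CPM in B6 EpiSC replicates 1, 4, 44 and 51 and to 1330, 1209, 1249 and 1236 in DE replicates 2, 4, 44 and 51. The groups overlapped, and DE replicate 2 did not stand apart. Of 63 peaks tested, edgeR called 3 lower and 2 higher in DE, with a median log2 change of 0.04. Over all peaks 25% were called lower and 32.6% higher, and over peaks at any promoter 13.3% and 13.6%.

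**Figure D5:**
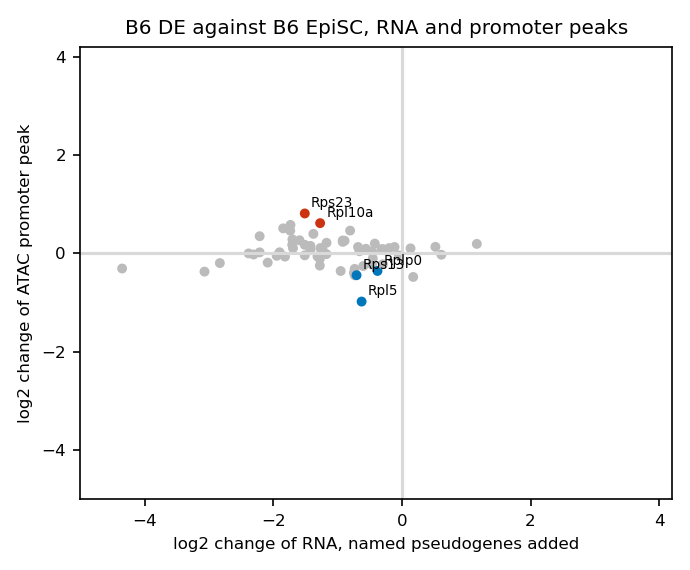
Log2 change of the RNA of members (summed form, horizontal axis) and of the ATAC peak at their promoter (vertical axis), B6 DE against B6 EpiSC, with peaks called higher in red and lower in blue. The peaks run from −0.98 to 0.81 around a median of 0.04, while the RNA runs mostly below 0.

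The Rpl5 peak (chr5:107900415-107900616, mm10) was at 12.2, 11.9, 14.5 and 13.8 CPM in EpiSCs and 11.3, 3.62, 6.58 and 4.90 in DE (−0.98, edgeR adjusted p = 0.0072). DE replicate 2 was just under the EpiSC range and the others were far below. The Rps13 peak (chr7:116334078-116334366) was lower by 0.44 on the log2 scale and the Rplp0 peak (chr5:115559242-115559522) by 0.36. The Rpl10a peak (chr17:28328263-28328499) was at 12.2, 12.02, 14.03 and 13.5 CPM in EpiSCs and 21.4, 20.4, 18.6 and 18.4 in DE (0.62, edgeR adjusted p = 0.0081), higher in all 4 DE libraries, while its RNA fell. The smaller peak at Rps23 (chr13:90923117-90923246) was also higher (0.81, edgeR adjusted p = 0.045), and the larger one was not called. With total library size no member peak was called higher, and with single libraries left out 0 to 1 was. The shares of all peaks called in those fits are not given.

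In PWK against B6 EpiSCs no member peak of 62 was called in either direction by edgeR, and 4 had an unadjusted p under 0.05. So did 1486 of 12367 peaks at any promoter and 23248 of all 137667 peaks tested. Over all peaks 3.68% were called lower and 1.42% higher in PWK, and over peaks at any promoter 1.92% and 0.784%. The median log2 change of member peaks was 0.12. In the DBA library 4 of the 62 peaks were below and 14 above the B6 range, where 11.3% and 33.1% of peaks at any promoter and 23.4% and 23.9% of all peaks were.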

How the data were processed

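Per the submitters' processing notes the study used Salmon, featureCounts and DESeq2 for RNA and fastp, Bowtie2, MACS2 and mm10 for ATAC-seq, with no versions, and which tool made the gene tables is not given in the sources used here. The values deposited by the authors are whole-number read counts, per Ensembl identifier for RNA and per peak for ATAC-seq. Whether strand was used in counting, and how reads that match several copies were placed, is not given in the sources used here. The annotation and build of the gene tables are not given either. The totals per RNA library were 22829536 to 66563933 counts.

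Columns were matched to samples by name. A PWK and a B6.129 F1 column carry no replicate number of the labels and are placed by strain only. DE of PWK (3 samples) is not analysed here, and 17 columns of the EpiSC peak table are not used. Both gene tables repeat the identical counts for the 5 B6 EpiSC libraries, so the comparisons share controls. All 22 pairs of replicates differed by more than sampling noise (chi-square per gene at least 9.71). Of 29555 rows, 285 had no symbol in the table of gene names.

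Counts were tested with edgeR 4.0.16 in R 4.3.3 (TMM scaling, filterByExpr, robust quasi-likelihood fit, Benjamini-Hochberg adjustment over all genes or peaks tested, threshold 0.05). B6 DE and B6 EpiSC were fitted alone, and the EpiSCs of B6, PWK and B6.129 F1 in 1 fit. CPM values use the TMM library size of their table, so levels differ slightly between tables. In the summed form the counts of rows named X-ps are added to row X and the whole table is refitted. Steps were tested on simulated data. Promoter windows are RefSeq's for GRCm38.p6, the assembly of mm10, and a peak belongs to a member if it overlaps the window.

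The genes named are the 4 called members that rose most and the 4 that fell most in each comparison, with a mean log2 CPM of at least 3 and no overlap, plus a list of RPs of known roles. A few genes that this rule names are not reported here. Other members and all pseudogenes were named after their values were seen. The members and lists were chosen with earlier results of these data known. Alternatives were RLE and total-count scaling, DESeq2 1.42.0, leaving out each library, other count filters, a minimum fold of 2, a replicate block, fits of only the groups compared, and peaks within 2 kb. Added after seeing the data were the DE tables without replicate 2, all fits without B6 numbers 2 and 44, members without Rps19bp1 and pseudogene rows, and a wider sum with copies that RefSeq pairs with a member by synonym or symbol, used for the Rps3a total.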

Additional observations from a re-analysis of the deposited data

Results flagged for a closer look

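In 95 groups of 4 or 5 libraries, 31 values lay apart from the rest of their group by Dixon's test at the 95% level, where chance flags about 1 in 20 groups. The members share libraries, so the groups are not independent.

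Of these, 24 are DE replicate 2 above the other 3 DE libraries. On single rows its values were 262 CPM for Rpl22, 165 for Rpl22l1, 554 for Rpl26, 150 for Rpl36a, 73.4 for Rpl37rt, 189 for Rpl38, 230 for Rpl39, 1029 for Rpl41, 80.9 for Rpl5, 1428 for Rpl7, 780 for Rpl7a, 603 for Rplp1 and 609 for Rplp2. Of the small subunit they were 1241 CPM for Rps14, 1303 for Rps19, 48.3 for Rps26, 660 for Rps27a and 1926 for Rps3. In the summed form they were 1615 CPM for Rpl10, 2752 for Rpl3, 278 for Rpl38, 660 for Rps23, 1877 for Rps6 and 59030 for all members together. The same library had the highest Pou5f1 (37.8 CPM) and feeder marker sum (271 CPM) of the DE libraries, and whether these bear on its RP values was not tested.

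The other 7 are B6 EpiSC replicate 1. It was the lowest of the EpiSC libraries for Rpl7a (1344 CPM), Rplp1 (380), Rplp2 (264), Rps12 (86.8) and Rps26 (181) on single rows and for Rpl10a in the summed form (505), and the highest for Rps27 (129). Its feeder marker sum, 69.7 CPM, was the lowest of the B6 EpiSC libraries.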

How the results depend on the processing

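Except for single rows without DE replicate 2, the shares of all genes or peaks called under the alternatives are not given. The counts of calls in this section thus have no background beside them. The B6 DE call counts kept their direction under every alternative run. On single rows 49 to 78 members were called lower and 2 to 3 higher as single libraries were left out, with a log2 ratio of the summed CPM of −1.36 to −0.75. In the summed form these were 42 to 79, 2 to 3, and −1.31 to −0.68. The highest counts, 78 and 79, were those without DE replicate 2, and without it Rps14 (−0.51 single, −0.52 summed), Rps19 (−0.42 and −0.43) and Rps3 (−0.27 and −0.27) turned from higher to lower, while without DE replicate 4 they were highest, at 0.38 and 0.37, 0.33 and 0.32, and 0.33 and 0.33 in the same order. Total-count scaling put the median over all genes at −0.10 and called 61 members lower on single rows.

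In PWK, leaving out libraries gave 29 to 52 lower, 3 to 4 higher and −0.51 to −0.44 on single rows, and 30 to 46, 4 to 5 and −0.38 to −0.33 in the summed form. With a fold of at least 2, 14 (single) and 8 (summed) were lower, and total library size gave a summed ratio of −0.29. In B6.129 F1 the counts of calls depended on the setting. Members called higher were 1 by total library size and 1 without a filter in both forms, 12 by DESeq2 in both forms (with 2 lower on single rows and 1 in the summed form), and 0 with a fold of at least 2 or with only the 2 groups fitted. Leaving out libraries gave 0 to 16 higher in both forms, 0 to 2 lower on single rows and 0 to 1 in the summed form, with ratios of −0.0046 to 0.051 and 0.036 to 0.065, and total library size gave −0.0091 on single rows. The cause was not tested.

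For the promoter peaks in DE, total library size gave 0 higher and 8 lower, DESeq2 1 higher, and peaks within 2 kb 4 higher and 10 lower. Leaving out libraries gave 0 to 1 higher and 3 to 7 lower. In PWK it gave 0 higher and 0 to 1 lower.

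With the replicate block on numbers 2, 4, 44 and 51, the DE comparison gave 62 lower and 2 higher on single rows, against 53 lower for the same libraries with no replicate block, and 58 against 48 in the summed form. For ATAC both fits gave 0 higher, and 2 and 3 lower. Deviations of same-numbered RNA libraries correlated at 0.096, 0.088, 0.18 and 0.24, not all over 0.1, so the numbers were not taken as pairs, although each library correlated best with its own number.

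Rows of single members mostly stayed on their side of the threshold. Without B6 numbers 2 and 44, chosen after seeing the data, PWK had 5 higher on single rows, and B6.129 F1 had 6 lower on single rows with a ratio of −0.021 and 3 lower in the summed form. The wider sum gave 52 lower in DE and 38 in PWK. Depth limits Rpl10l, Rpl39l and Rpl3l, and 2 PWK ATAC libraries and 1 DBA library limit those comparisons.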

Other observations

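Promoter letters were also counted by the members' pattern in DE. Of 36 windows of members below the EpiSC range in all 4 DE libraries, 30.6% had a pyrimidine run of at least 8 bases, 27.8% had AAGATGG and 69.4% had CGGAAG. Of 32 windows of members below it in replicates 4, 44 and 51 but not in 2, these were 37.5%, 3.13% and 53.1%. GGGCGG was in 55.6% of the first set and 62.5% of the second, and TATAAA in 8.33% and 9.38%. Some members have overlapping windows, such as Rpl35a, Rps21 and Rps24 in the first set and Rpl10a and Rps19 in the second. A count of windows is therefore not a count of genes. The groups come from the measured values, and the difference was not tested.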
